A study of Mus musculus with 6 samples.

Results

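The tumour necrosis factor (TNF) superfamily genes of liver iNKT1 cells were examined: the ligands, their receptors, and the Traf and death-domain adaptor genes that carry the receptors' signals. Members were taken by symbol from the GENCODE M21 annotation (names starting with Tnfrsf or Tnfsf, Traf1 to Traf7, and Tnf, Lta, Ltb, Ltbr, Fas, Fasl, Cd27, Cd40lg, Cd70, Tradd, Fadd and Ripk1). A total of 52 annotated genes fit these names and 38 of them had a row among the 12942 genes of the table, namely 12 ligands, 16 receptors and 10 Traf and adaptor genes. The other 14 were not analysed here.

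The cells, sorted from mouse liver, bound the CD1d tetramer and carried YFP. Control mice carried Tbx21Cre and Rosa26-YFP+. The cKOHet mice carried the same alleles with, in addition, Ets1F/F and Tbx21F/+, so that both groups shared the Cre and the reporter. The Cre is driven from Tbx21, the gene of the type 1 lineage factor T-bet, and YFP marks cells in which it has acted. There were 3 control and 3 cKOHet libraries, numbered 1, 2 and 4. The titles of control replicate 4 and cKOHet replicate 1 read iNKT, and the other titles read iNKT1. The column code of replicate 1 joins 2 names in both groups, and whether libraries or mice were pooled there is not stated. The sources used here give neither age nor the number of mice behind a library.

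TNF superfamily ligands are mostly trimeric proteins of the cell surface, and their receptors fall into broad kinds. Receptors with a death domain, such as Fas and the TRAIL receptor, recruit FADD and caspase-8 or TRADD and RIPK1. Receptors without one, such as 4-1BB, GITR, OX40 and CD27, bind TRAF proteins and feed NF-kappaB and MAP kinase signalling, which costimulates T cells. iNKT cells respond quickly to lipids shown by CD1d, and in the liver they patrol the sinusoids and act on neighbouring cells through FasL, TRAIL, CD40L and secreted cytokines.

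Levels below are normalised read counts, listed as control replicates 1, 2 and 4 against cKOHet replicates 1, 2 and 4. Column sums lay between 4996523 and 5219483. Ets1, the targeted transcription factor gene, was at 6255 to 7787 in controls and was at 441 to 596 in cKOHet libraries, so the libraries matched their labels. Tbx21, of which 1 allele was floxed in cKOHet mice, was at 2434, 2504 and 2765 and at 2174, 2316 and 2127. Tbx21 was not called (log2 fold change -0.22, limma adjusted p = 0.196). Replicate 4 of each group stood apart from the others in Xist, at 1.17 and 0.08 against 4337 to 5657. All 12 iNKT and T cell identity genes had a row. Of these, 3 rose (Cd247, Nkg7 and Zbtb16, by 0.37, 0.45 and 0.53 on the log2 scale) and 2 fell (Cxcr3 and Il2rb, by 0.51 and 0.72). The summed level of the 12 was 55800 to 61000 in controls and 51900 to 57200 in cKOHet libraries. Il2rb alone was at 19870 to 20474 and 10596 to 14344. No gene of the B cell (7) and neutrophil (6) marker lists had a row that was analysed here. Levels of 11 myeloid and Kupffer cell markers summed to 38.8 to 103 in controls and 170 to 238 in cKOHet libraries. Of 6 tested markers 3 rose, Cd5l, Clec4f and Csf1r (log2 fold changes 3.09, 2.31 and 2.17). Adgre1, the defining F4/80 gene, was at 0.0 to 2.7 and 1.8 to 16.1 and was too low to be tested. The 3 dendritic cell markers with a row summed to 111 to 155 and 292 to 338, and the 7 hepatocyte markers to 198 to 397 and 255 to 625. The 2 endothelial markers summed to 172 to 224 and 48.9 to 52.4, through Pecam1 (172 to 220 and 36.5 to 51.4). Stab2, the other of these 2, was at 0.0 to 3.7 and 1.0 to 12.4. The erythroid gene Hba-a1 was at 0.06 or less in controls and 7.4 to 33.2 in cKOHet libraries. The part of these cells in the results that follow was not tested. In bulk libraries, fewer cells of a type and less RNA per cell cannot be told apart.

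Of the 38 genes, 33 reached a value of 10 in at least 3 libraries and were tested with limma on log2(value + 1), with Benjamini-Hochberg adjustment over all 11226 genes tested. Fold changes are cKOHet minus control on that scale, where changes of low genes come out too small, and calls were made below an adjusted p of 0.05. Called genes numbered 11 (33.3%), with 4 higher and 7 lower in cKOHet libraries. Across all genes tested, 21.4% were called, 11.5% higher and 9.97% lower. The groups did not overlap at 14 of the 33 genes (42.4%), against 35.8% of all genes tested. The median log2 fold change of the 33 was -0.20, against 0.01 for all genes, and the median of its absolute size was 0.34, against 0.30. With 3 libraries against 3, an exact permutation test of a single gene cannot fall below 0.1.

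**Figure D1:**
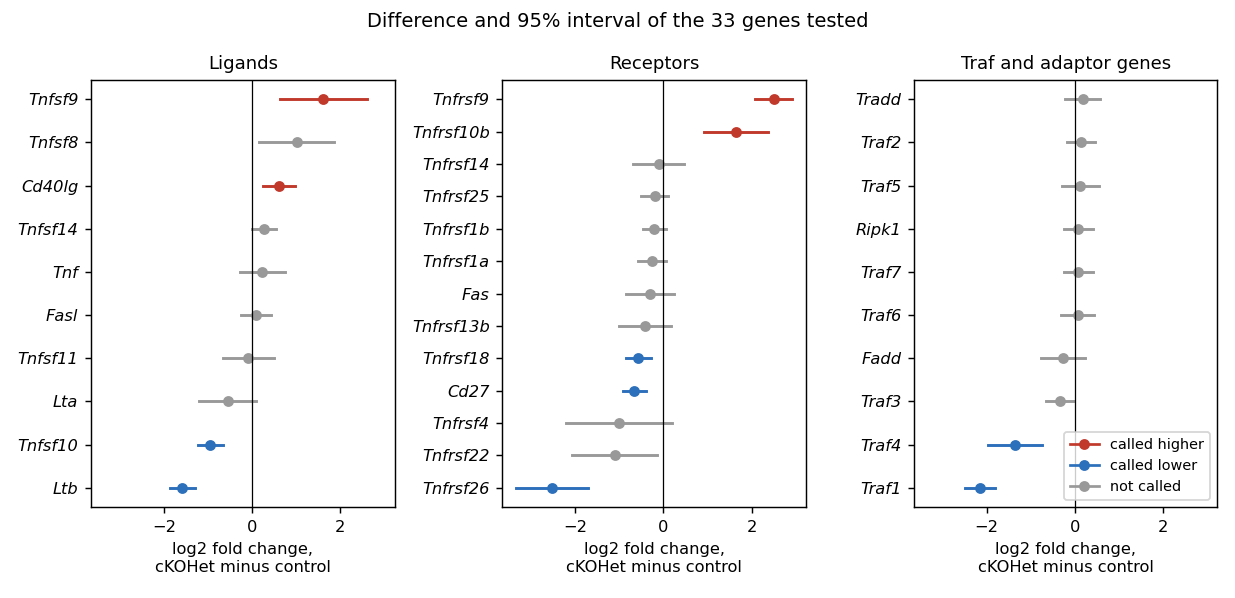
Log2 fold change (x axis, cKOHet minus control on the log2(value + 1) scale) of the 33 genes tested, by role; points are limma estimates from 3 libraries per group and lines their 95% intervals. Called genes lie from -2.52 (Tnfrsf26) to 2.50 (Tnfrsf9). Among the Traf and adaptor genes only Traf1 and Traf4 were called in this fit (20%, against 21.4% of all genes tested).

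Promoters are shown for 4 genes on which the results turn, since they include, among the genes tested, the largest rise of a receptor (Tnfrsf9), the largest falls of an adaptor and a ligand (Traf1, Ltb), and a close neighbour of Ltb that was not called (Tnf). Each runs 5′ to 3′ on the gene's strand from 250 bases before to 50 bases after the RefSeq start, on GRCm38.p6 (mm10). Capitals mark matches on either strand. The letters sought were GGAAGT, a form of the ETS family motif bound by Ets1, and the consensus of the kappaB motif bound by NF-kappaB. Other forms of the ETS motif were not searched for, so a label without it means only that GGAAGT was absent.
Ltb, chr17:35194257-35194556, plus strand, with a kappaB match on the opposite strand: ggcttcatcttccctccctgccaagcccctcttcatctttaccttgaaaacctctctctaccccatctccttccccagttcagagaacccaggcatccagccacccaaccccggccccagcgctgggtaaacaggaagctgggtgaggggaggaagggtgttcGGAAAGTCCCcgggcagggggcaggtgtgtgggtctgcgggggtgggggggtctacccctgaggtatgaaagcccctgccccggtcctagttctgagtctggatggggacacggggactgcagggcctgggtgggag
Tnf, chr17:35201958-35202257, minus strand, with an ETS match: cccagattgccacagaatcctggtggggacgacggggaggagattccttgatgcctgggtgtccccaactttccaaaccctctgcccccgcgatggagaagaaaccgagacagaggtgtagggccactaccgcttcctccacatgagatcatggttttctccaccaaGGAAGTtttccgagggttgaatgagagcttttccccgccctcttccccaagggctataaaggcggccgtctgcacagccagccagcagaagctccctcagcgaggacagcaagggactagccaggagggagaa
Traf1, chr2:34961723-34962022, minus strand, with an ETS match on the opposite strand: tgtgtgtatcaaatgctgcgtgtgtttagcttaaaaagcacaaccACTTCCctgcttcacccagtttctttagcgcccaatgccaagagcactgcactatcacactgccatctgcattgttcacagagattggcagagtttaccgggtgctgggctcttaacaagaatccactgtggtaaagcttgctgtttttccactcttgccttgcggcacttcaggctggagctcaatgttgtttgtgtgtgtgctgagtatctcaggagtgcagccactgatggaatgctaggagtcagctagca
Tnfrsf9 upstream start, chr4:150919905-150920204, plus strand, with no match: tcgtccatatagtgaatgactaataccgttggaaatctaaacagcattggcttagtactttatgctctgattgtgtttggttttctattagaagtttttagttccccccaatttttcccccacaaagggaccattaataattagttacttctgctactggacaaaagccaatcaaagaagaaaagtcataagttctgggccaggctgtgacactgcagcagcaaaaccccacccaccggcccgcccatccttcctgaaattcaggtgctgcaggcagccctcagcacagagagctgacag
Tnfrsf9 downstream start, chr4:150927749-150928048, plus strand, with 2 overlapping kappaB matches: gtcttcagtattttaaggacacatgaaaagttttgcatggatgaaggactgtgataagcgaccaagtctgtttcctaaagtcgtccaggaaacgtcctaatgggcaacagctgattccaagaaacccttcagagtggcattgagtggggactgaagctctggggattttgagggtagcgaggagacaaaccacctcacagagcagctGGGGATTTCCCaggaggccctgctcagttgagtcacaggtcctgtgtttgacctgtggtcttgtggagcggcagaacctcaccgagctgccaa

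The RefSeq promoter set used here had no entry for Cd40lg, Tradd, Tnfrsf10b, Tnfrsf22, Tnfrsf26, Tnfsf4 and Tnfsf9. It held a promoter for 31 of the 38 genes, 34 promoters in all. GGAAGT was found in those of 10 genes and in 23.8% of all 32851 mouse promoters of the same length. The kappaB consensus was found in 4 genes (Ltb, Tnfrsf9, Tnfrsf25 and Traf3) and in 5.8% of all promoters. Among the 6 genes called lower that had a promoter, 1 held GGAAGT (Traf1) and 1 the kappaB consensus (Ltb). The T-box core GGTGTGA was in none of the 34 promoters and in 3.98% of all, and the RUNX core TGTGGTT was in that of Tnfsf14 alone among the members and in 5.27% of all. No match of the 4 motifs overlapped a match of another. These matches describe letters in short windows and not binding.

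Among the 10 ligand genes tested, 2 fell, 2 rose and 6 were not called (40% called, against 21.4% of all genes tested). Ltb encodes lymphotoxin beta (mm10 chromosome 17, 35194439 to 35196320), the chain that anchors lymphotoxin alpha to the cell surface and engages the lymphotoxin beta receptor. Its level was 2414, 2745 and 3334 in controls against 873, 993 and 957 in cKOHet libraries. Every cKOHet library was below the lowest control, and the log2 fold change was -1.58 (SE 0.13, 95% interval -1.85 to -1.30, limma adjusted p = 4.79e-07). Ltb lies 3.06 kb from Tnf on chromosome 17, and Tnf lies 1.16 kb from Lta. Tnf, the founding cytokine of the family, was at 134, 97.1 and 111 in controls against 179, 127 and 103 in cKOHet libraries. These values overlapped, and its interval of -0.28 to 0.74 lay apart from that of Ltb. Lta, which encodes lymphotoxin alpha, was at 86.8, 53.8 and 106 against 43.3, 63.0 and 57.3, with an interval of -1.20 to 0.10 that also included 0.

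Tnfsf10 encodes TRAIL (chromosome 3, 27317028 to 27342427), a death ligand of NK cells and activated T cells. It was at 1166, 982 and 1152 in controls against 483, 638 and 596 in cKOHet libraries. The groups were well apart, and the log2 fold change was -0.95 (SE 0.13; limma adjusted p = 9.95e-05). Fasl, another death ligand gene, was at 859, 709.9 and 587 against 783, 633 and 867. Its groups overlapped fully and its interval was -0.24 to 0.42 (limma adjusted p = 0.758), while that of Tnfsf10 was -1.23 to -0.66. A difference between these genes was not tested.

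The ligand genes that rose were Cd40lg and Tnfsf9. Cd40lg encodes CD40 ligand (chromosome X, 57212143 to 57224042), the helper signal to B cells and antigen-presenting cells. It was at 889.9, 742 and 726 in controls against 1005, 1042 and 1634 in cKOHet libraries. All cKOHet libraries were above all controls, and cKOHet replicate 4 was the highest (log2 fold change 0.61, SE 0.17, limma adjusted p = 0.0158). This X-linked gene lost its call without control replicate 2 (adjusted p = 0.0562), without control replicate 4 (0.0635) and without cKOHet replicate 4, where the fold change was 0.39 (0.0563). Among the libraries with high Xist alone it was 0.33 (adjusted p = 0.135).

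Tnfsf9 encodes 4-1BB ligand (chromosome 17, 57105325 to 57107757), which costimulates T cells through 4-1BB. Its level was low, at 16.5, 7.48 and 10.7 in controls against 39.3, 51.2 and 22.9 in cKOHet libraries. The groups did not overlap (log2 fold change 1.62, SE 0.46, limma adjusted p = 0.019). The call ended without control replicate 2 (adjusted p = 0.0655), cKOHet replicate 1 (0.0624) or cKOHet replicate 2 (0.103), with fold changes of 1.37, 1.56 and 1.37. A noncoding gene on the opposite strand, Gm11110, shares 192 exonic bases with Tnfsf9, or 14.9% of its exons. Gm11110 was also higher, at 34.1, 19.1 and 39.2 against 88.6, 65.8 and 88.4 (log2 fold change 1.41, adjusted p = 0.0063). The strand setting of the counting is not given in the sources used here, so reads of the shared stretch cannot be told apart.

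Tnfsf14 and Tnfsf8 had groups that did not overlap but were not called. Tnfsf14 encodes LIGHT, a ligand of HVEM and of the lymphotoxin beta receptor. It was at 1034, 823 and 1082 against 1182, 1122 and 1236, with an interval of 0.01 to 0.55 (limma adjusted p = 0.144). Tnfsf8, which encodes CD30 ligand, was at 35.9, 24.4 and 32.8 against 45.3, 125 and 43.7. The value of 125 was that of cKOHet replicate 2, and without that library its log2 fold change was 0.52, against 1.01 with it (adjusted p = 0.0888). Tnfsf11, which encodes RANKL, was at 72.8 to 109 and 62.0 to 108 and was not called. The other two ligand genes were too low to be tested. Tnfsf18, which encodes GITR ligand, reached 22.6 in cKOHet replicate 2 and was at 0.0 to 7.0 in the other libraries. Tnfsf4, which encodes OX40 ligand, was at 5.3 to 9.4 in controls and 1.0 to 2.1 in cKOHet libraries.

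**Figure D2:**
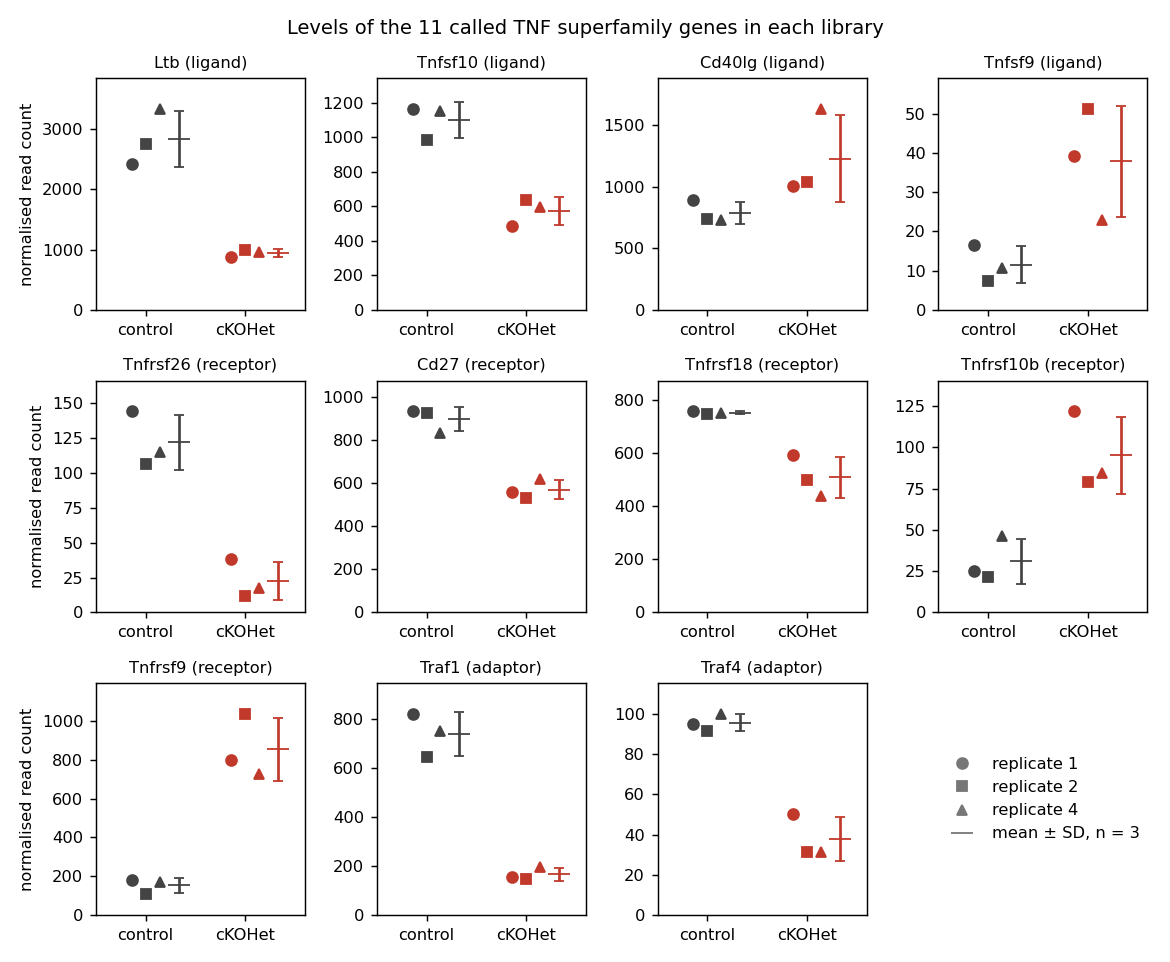
Normalised read counts (y axis, from 0) of the 11 called genes in each library; symbols give the replicate number, and bars the mean ± SD of 3 libraries. In each of the 11 panels the cKOHet libraries lie wholly above or wholly below the controls, for example in Tnfrsf9 (108 to 182 against 727 to 1038) and Traf1 (644 to 821 against 146 to 196). The genes were chosen by a test on these same values, so their separation is no further evidence. Groups did not overlap at 35.8% of all genes tested.

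Of 13 receptor genes tested, 2 rose, 3 fell and 8 were not called (38.5% called, against 21.4% of all genes tested). Tnfrsf9 encodes 4-1BB or CD137 (chromosome 4, 150914562 to 150946102), an activation-induced costimulatory receptor of T and NK cells. It was at 182, 108 and 168 in controls against 799.7, 1038 and 727 in cKOHet libraries. The lowest cKOHet value was far above the highest control, and the rise was 5.65-fold (log2 fold change 2.50, SE 0.20, limma adjusted p = 2.85e-07). Its own ligand gene Tnfsf9, described above, was called in the same direction. The gene Camta1 spans Tnfrsf9 on the opposite strand but shares none of its exon bases, and Camta1 was at 13.6 to 50.4 in all libraries. Regulatory T cells are known for 4-1BB and GITR, and their markers are given here for that reason. Of 6 such markers 4 had a row, and Foxp3 and Lrrc32 had none. Il2ra, Ikzf2 and Ikzf4 rose and Ctla4 was at 4.0 to 15.8 in all libraries. The summed level of the 4 was 1220 to 1470 in controls and 2450 to 2800 in cKOHet libraries. Markers of NK cells summed to 450 to 574 and 793 to 3120 (4 of 6 tested rose, 1 fell, and Ncr1 was at 5.5 to 9.5 throughout). Of those that rose, Klra8 (2.2 to 4.3 in controls) and Eomes (0.07 to 12.6) passed the filter mainly through cKOHet libraries. Among the NK cell markers Gzma was at 71.0 to 141 and 411 to 2719. Markers of CD8 T cells summed to 23.7 to 42.2 and 252 to 1690, through Cd8a. Cd8b1, the other of these 2, was at 3.6 to 31.5 and 13.6 to 35.4 and was not called. The highest values of Gzma and Cd8a were both those of cKOHet replicate 2. The part of these cells in the rise of Tnfrsf9 was not tested.

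Tnfrsf10b encodes DR5 (chromosome 14, 69767472 to 69784411), the mouse death receptor for TRAIL. It was low in controls, at 24.8, 21.2 and 46.6, and at 122, 78.8 and 84.3 in cKOHet libraries. The groups did not overlap, and the log2 fold change was 1.65 (SE 0.34, limma adjusted p = 0.00258). The TRAIL gene Tnfsf10 and its death receptor gene were thus called in opposite directions.

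Tnfrsf26 and Tnfrsf22 are adjacent receptor genes on chromosome 7, 6.08 kb apart, and Tnfrsf22 encodes a decoy receptor for TRAIL. Tnfrsf26 spans 143607659 to 143628722 and was at 144, 106 and 115 in controls against 38.3, 11.9 and 17.8 in cKOHet libraries. That was the steepest fall among the 33 genes tested in this fit, by 2.52 on the log2 scale (SE 0.38, limma adjusted p = 0.00017). Tnfrsf22 was at 103, 34.9 and 72.9 against 30.2, 15.6 and 52.0. Its groups overlapped, because control replicate 2 was below cKOHet replicate 4, and it was not called (log2 fold change -1.11, adjusted p = 0.103). It was called without control replicate 2 (-1.54, adjusted p = 0.029) or without cKOHet replicate 4 (-1.51, 0.0467). A share of 27.4% of the 50-base stretches of Tnfrsf22 transcripts also occurs in other genes, most of it in Tnfrsf23, so its count is uncertain where such reads were dropped or split.

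Cd27 and Tnfrsf18 were among the most abundant receptor genes and fell moderately. Cd27 encodes a costimulatory receptor (chromosome 6, 125232622 to 125237010) of naive and memory-type T cells that binds CD70. Controls held 934, 925 and 833 and cKOHet libraries 558, 532 and 618, which gave a log2 difference of -0.66 (SE 0.12, limma adjusted p = 0.000989). Tnfrsf18 encodes GITR (chromosome 4, 156026164 to 156028895), a costimulatory receptor of activated and regulatory T cells. Its values were close together in controls, at 759.8, 749.9 and 753, and lower in every cKOHet library, at 593, 499.5 and 438. Its log2 fold change was -0.57 (SE 0.13, adjusted p = 0.00562), and the call ended when no mean-variance trend was used (adjusted p = 0.0542). An antisense gene, Gm16008, covers 27.2% of the Tnfrsf18 exon bases and was at 0.03 to 8.05 in all libraries. GITR and 4-1BB, both costimulatory receptors bound by TRAF proteins, were thus called in opposite directions. Tnfrsf4, which encodes OX40, lies 9.55 kb from Tnfrsf18 and was low, at 10.1, 21 and 14.8 against 9.1, 10.2 and 3.2, and was not called (adjusted p = 0.244).

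The receptors for TNF itself were abundant and were not called. Tnfrsf1b encodes TNFR2, the TNF receptor of lymphocytes without a death domain, and was at 1357, 1239 and 1238 against 996, 1061 and 1266. Tnfrsf1a encodes TNFR1, the death-domain receptor, and was at 564, 628 and 746 against 462, 627 and 534. Both had overlapping groups, with intervals of -0.47 to 0.05 and -0.57 to 0.06. Tnfrsf25 (DR3, the receptor for TL1A) was at 379 to 444 and 326 to 405, and its interval was -0.50 to 0.11. Fas, the receptor of FasL, was at 78.2 to 108 and 62.0 to 88.6, and Tnfrsf14, which encodes HVEM, at 113 to 124 and 68.5 to 159. Tnfrsf13b encodes TACI, best known from B cells, and was at 103 to 138 and 55.2 to 111. None of these was called (limma adjusted p 0.255 to 0.831). The remaining 3 receptor genes were too low to be tested. Tnfrsf21, which encodes DR6, was at 6.5, 16.7 and 10.5 in controls against 0.0, 0.8 and 4.2 in cKOHet libraries. Ltbr, the receptor gene for the lymphotoxin alpha and beta complex, was at 3.2 to 11.5 and 4.0 to 8.3, and Tnfrsf12a, which encodes the TWEAK receptor, at 5.5 to 8.4 in all libraries.

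Levels were compared between genes per kb of annotated exon. Ltb was the most abundant ligand gene in controls, at 1592 to 2199 normalised reads per kb, above Cd40lg (581 to 712) and Tnfsf14 (445.5 to 586), whose ranges overlapped. In cKOHet libraries Cd40lg came first (804 to 1307), and the ranges of Tnfsf14 (608 to 669) and Ltb (576 to 655) overlapped. Fasl and Tnfsf10 held ranks 4 and 5 of 12 in both groups. Among the receptor genes, Tnfrsf18 led in both groups, at 492 to 499 per kb in controls and 287.5 to 389 in cKOHet libraries. Tnfrsf9 moved from rank 7 of 16 in controls (39.6 to 66.8 per kb) to rank 2 in cKOHet libraries (267 to 381.5), where its range overlapped those of Tnfrsf18 and Tnfrsf1b (261 to 331.5). Cd27 moved from rank 2 to rank 4. These ranks use the union of all annotated exons, which need not be the transcripts used in these cells.

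**Figure D3:**
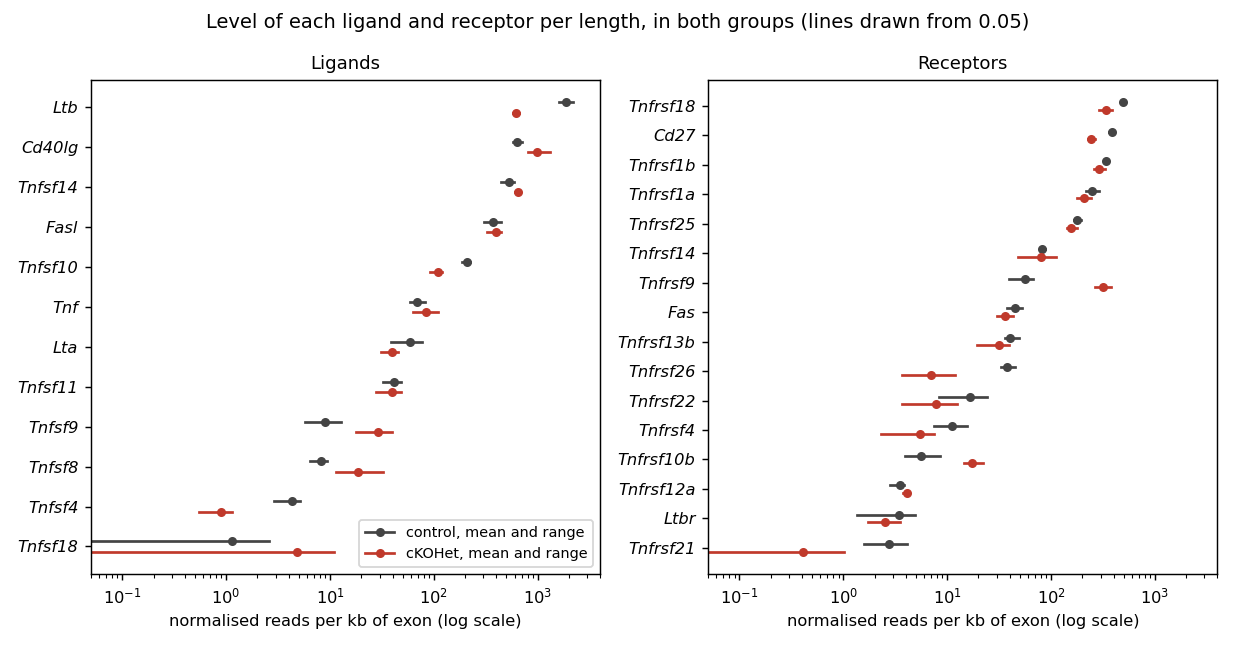
Level of each ligand and receptor gene in normalised reads per kb of annotated exon (x axis, log scale), with the mean and range of 3 control and 3 cKOHet libraries; lines that reach the left edge start below 0.05. Tnfrsf9 stands at 39.6 to 66.8 in controls and 267 to 381.5 in cKOHet libraries, while Ltb drops from 1592 to 2199 to 576 to 655.

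All 10 Traf and adaptor genes were tested, and 2 were called, both lower. That was 20%, close to the 21.4% of all genes tested. Traf1 encodes an adaptor (chromosome 2, 34941750 to 34961772) that is itself induced by NF-kappaB and joins TRAF2 at 4-1BB and other TNF receptors. It was at 821, 644 and 750.4 in controls against 154, 146 and 196 in cKOHet libraries. The fall was 4.46-fold in controls over cKOHet libraries (log2 fold change -2.16, SE 0.16, limma adjusted p = 1.39e-07), in the opposite direction to Tnfrsf9. Per kb, Traf1 held rank 2 of the 10 adaptor genes in controls (73.1 to 93.1) and rank 9 in cKOHet libraries (16.6 to 22.2). Traf4, on chromosome 11 at 78158499 to 78165589, encodes a TRAF protein better known from epithelia and development. It was at 95.2, 91.7 and 100.3 against 50.4, 31.4 and 31.3. The groups were apart, with a log2 fold change of -1.36 (SE 0.29, adjusted p = 0.00302).

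No other adaptor gene was called. Traf2, which links 4-1BB, TNFR2 and TNFR1 to NF-kappaB, was at 318, 264 and 320.3 in controls against 348.5, 336.5 and 303 in cKOHet libraries, with an interval of -0.18 to 0.45. Traf3, a brake on the noncanonical NF-kappaB pathway, was at 552, 544 and 443 against 411, 358 and 441. Its groups were barely apart, and it was not called (log2 fold change -0.34, adjusted p = 0.104). In the libraries with high Xist alone Traf3 was called (-0.51, adjusted p = 0.037). Traf5, Traf6 and Traf7 had intervals of -0.29 to 0.54, -0.31 to 0.43 and -0.25 to 0.41. The death-domain adaptor genes Tradd, Fadd and Ripk1 had intervals of -0.22 to 0.58, -0.76 to 0.22 and -0.25 to 0.40, and none of the 3 was called (adjusted p 0.464 to 0.78).

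Of a list of 61 further genes of TNF receptor signalling (NF-kappaB subunits and regulators, ubiquitin editors, caspases and ligand-shedding proteases), 59 were tested, 2 rose and 10 fell. That was 20.3% called, close to the 21.4% of all genes, with a median log2 fold change of -0.10. Both genes that rose encode deubiquitinases of the pathway. Tnfaip3 encodes A20, an NF-kappaB-induced inhibitor of TNF signalling, and was at 512, 457 and 520.1 against 689, 694 and 841 (log2 fold change 0.57, SE 0.13, limma adjusted p = 0.00474). Otud7b, which encodes Cezanne, rose by 0.70 (adjusted p = 0.0122), a call that ended without control replicate 2 or cKOHet replicate 4 (0.064 and 0.0608). The gene of an A20-binding partner, Tnip1, moved the other way, at 642, 541 and 876 against 344.5, 363 and 408 (-0.86, adjusted p = 0.00142). Tnfaip8 and Tnfaip8l2, lipid-binding proteins of one family, fell by 0.93 and 1.14 on the log2 scale (adjusted p = 0.000513 and 0.000605). Another gene of that family, Tnfaip8l1 (named after its values were seen), was not called (log2 fold change 0.32, interval -0.55 to 1.20). Trafd1, a TRAF-type zinc finger protein that restrains innate signalling, fell by 0.81 (adjusted p = 0.00249).

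**Figure D4:**
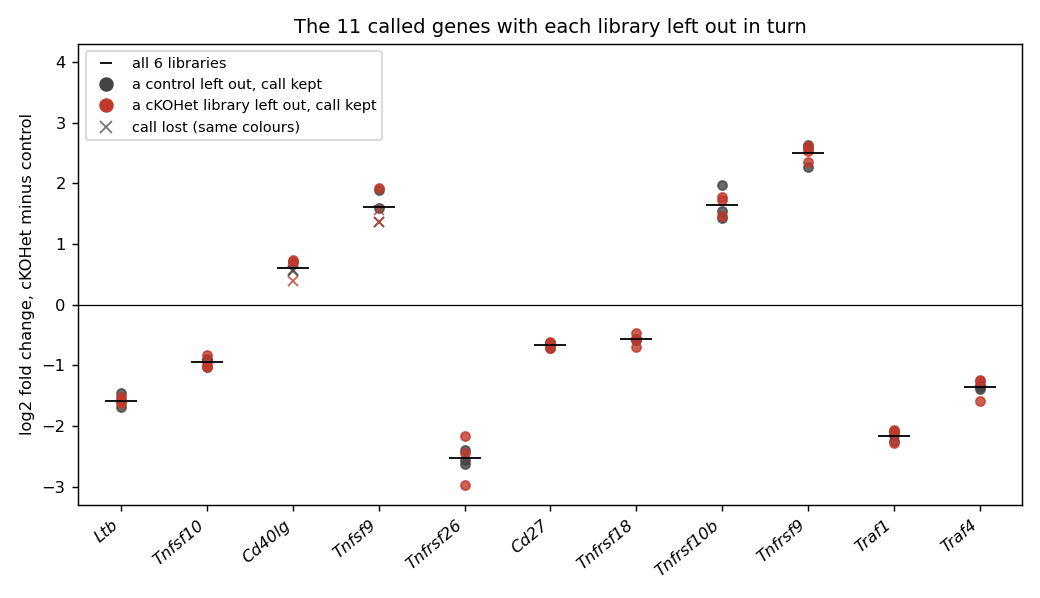
Log2 fold change (y axis, cKOHet minus control) of the 11 called genes with all 6 libraries (bars) and with each library left out in turn (points, coloured by the group of the library left out; crosses mark a lost call). All calls were kept except those of Cd40lg and Tnfsf9, each lost in 3 of 6 cases; Tnfrsf26 moved most widely, from -2.97 to -2.17.

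With each library left out in turn, 9 of the 11 called genes kept their calls. Their direction could not change in these fits, because the groups did not overlap at any of the 11. The number of genes called higher was 2 to 4 in these fits, with 2 without control replicate 2 (Tnfrsf9 and Tnfrsf10b), and the number called lower was 7 or 8. Tnfrsf9 ranged from 2.27 to 2.64, Traf1 from -2.28 to -2.07 and Ltb from -1.69 to -1.45.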

How the data were processed

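Liver iNKT1 cells of 3 control and 3 cKOHet libraries were compared. The authors' deposited values are a signal for each gene, named normalised HTSeq counts. Trimmomatic 0.33, STAR, HTSeq 0.6.1 and DESeq2 with mm10 are listed in the submitters' processing notes. Their roles, settings, strand and filters are not given in those notes. The smallest maximum of any gene was 5.22, and whole reads were not recovered, so the depth is unknown. Symbols, positions and exon lengths came from GENCODE M21 (GRCm38), which named 12864 rows. Genes that reached 10 in 3 or more of 6 libraries were tested on log2(value + 1) with limma 3.58.1 in R 4.3.3 (mean-variance trend, Benjamini-Hochberg over all genes tested, threshold 0.05). The procedure was tested on simulated data. The labels call the libraries independent without naming mice, so p-values cover only the spread among libraries, which may be technical.

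Named genes were all called members, members not called whose groups did not overlap, untested members reaching 10 in any library, the 4 strongest calls per direction of the pathway list, and Ets1 and Tbx21. The other members were named to account for every gene. The members and lists were chosen with earlier results of these data known. Alternatives covered pseudocount, filter, scaling, variance model, library weights, replicate block, threshold, Xist and each library left out.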

Additional observations from a re-analysis of the deposited data

How the results depend on the processing

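No called gene changed sign, but leaving libraries out could not change a sign where the groups did not overlap. Of the 11 called genes, 8 kept their call in every alternative run. Cd40lg, Tnfsf9 and Tnfrsf18 were the exceptions. Cd40lg lost its call with no mean-variance trend (adjusted p = 0.127) and at a threshold of 0.01, Tnfsf9 at 0.01, and Tnfrsf18 when a 1.5-fold change was also required. At a threshold of 0.01, the members called higher numbered 2, the pathway genes called higher 1, and all genes called 806 higher and 670 lower (1288 and 1119 at 0.05). With no trend, 1 pathway gene was called higher and 6 lower, and with a 1.5-fold minimum 1 was higher. With each library left out, 2 to 4 members and 1 to 4 pathway genes were called higher; the cause was not tested.

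Tnfrsf22, Traf3 and Tnfsf8 were called with library weights (adjusted p = 0.0389, 0.0471 and 0.0451). Same-numbered libraries did not deviate together (correlations of 0.09, 0.09 and 0.05 for replicates 1, 2 and 4), so the numbers were not used as pairs. With a replicate block 4 members were called higher and 8 lower, and the added call was Tnfrsf22 (adjusted p = 0.0373). Genes not called that changed sign were Fasl (-0.01 with library weights, -0.15 in the libraries with high Xist alone, -0.05 to 0.22 with a library left out), Traf6 (-0.12 with high Xist alone, -0.11 to 0.19), Traf7 (-0.05 with high Xist alone, -0.10 to 0.20), Tnfsf11 (-0.24 to 0.15), Tnfrsf14 (-0.38 to 0.22) and Ripk1 (-0.01 to 0.14). The analysis of high Xist libraries was chosen after seeing the data.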

Other observations

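Of 7 superfamily genes that the naming rule leaves out, the 2 with a row both fell (chosen after their values were seen). Edaradd, the death-domain adaptor gene of the ectodysplasin receptor, was at 160.0, 132 and 120.4 in controls and 65.5, 21.2 and 27.1 in cKOHet libraries (log2 fold change -1.99, SE 0.36, limma adjusted p = 0.00082). Relt, a TNF receptor relative found in lymphoid tissue, was at 248.5, 231 and 218 against 125.9, 70.3 and 87.5 (-1.33, SE 0.22, adjusted p = 0.000452).

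Several genes of the death receptor pathway were also among the 10 pathway genes that fell (chosen after their values were seen). Bid, which links caspase-8 to mitochondria, was at 125, 90.7 and 114 in controls and 55.4, 59.2 and 35.5 in cKOHet libraries (log2 fold change -1.14, limma adjusted p = 0.00789). Casp8, the initiator caspase of death receptors, was at 1199, 1254 and 1204 against 974, 871 and 904 (-0.41, adjusted p = 0.0145). Daxx, Nfkbid and Traf3ip3 also fell, at -0.70, -0.79 and -0.39.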
